A study of Tigriopus californicus with 9 samples.

Results

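Nanos, vasa, tudor proteins and the synaptonemal complex are working parts of the animal germ line, and 4 contigs named after them were followed here across the parents and hybrids of a copepod cross. The contigs are SD_As4_Contig4701 (nanos homolog 2), SD_As4_Contig803 (vasa intronic isoform a), SD_As4_Contig976cap (tudor domain-containing protein 1) and SD_As4_Contig4930 (synaptonemal complex), 4 of 13758 features measured. The prefix is left out below. They had been chosen by name with the values of these libraries already known. Contig4701 and Contig4930 were chosen for their difference between the parental populations, and the values that led to the other two are not recorded. Levels of the 4 contigs are therefore given as a description in every comparison, with no test. Contig803 had been listed as vasa, but its deposited name is that of the vasa intronic gene, and the row carrying the name vasa-like protein is a different one, Contig1018. It is called here by its deposited name.

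The libraries came from Tigriopus californicus, a copepod crustacean that lives in pools high on the rocky Pacific shore. SDf x SCNm hybrids (n = 2) descend from San Diego females and Santa Cruz males, and SCNf x SDm hybrids (n = 2) from Santa Cruz females and San Diego males. Both were bred on among themselves to hybrid generation 3, so each animal carries its own mixture of the nuclear genomes on the mitochondrial genome of its maternal population. The San Diego population (SD, n = 3) and the Santa Cruz population (SCN, n = 2) were kept as parental cultures. Each library is polyA RNA from a pool of 400 to 500 animals of mixed stages held at 20 °C for 2 h. Titles were used to place the SCNf x SDm libraries, because their source label names the opposite cross. Because gonads were not isolated, fewer germ cells and less RNA per germ cell cannot be told apart in any value below.

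Nanos is an RNA-binding protein that, together with Pumilio, represses translation, and in Drosophila it is needed for germ cells to develop. Vasa is an RNA helicase that marks germ cells in many animals, whereas the vasa intronic gene lies within an intron of vasa in Drosophila and encodes a separate RNA-binding protein found with the RNA interference machinery. Tudor domain proteins bind methylated arginines of Piwi proteins, and in the mouse the protein named tudor domain-containing protein 1 takes part in silencing transposons through piRNAs. The synaptonemal complex holds paired homologous chromosomes together during meiosis, the division that makes eggs and sperm.

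Depth varied widely. Reads recovered from the deposited values numbered 4.88 and 14.5 M in SDf x SCNm, 12.7 to 13.6 M in SCNf x SDm, 0.943 to 16.5 M in SD, and 1.54 and 3.80 M in SCN. The shallowest libraries, SD replicate 3 and SCN replicate 2, came from sequencing run 3. Run 1 held replicate 1 of both parents, run 2 held SD replicate 2, run 4 held SDf x SCNm replicate 1, and run 5 held SDf x SCNm replicate 2 with both SCNf x SDm libraries. Hybrids and parents were never sequenced together, and the effects of run and of being a hybrid cannot be told apart. The run 3 libraries also differed over the whole table: the median difference SD minus SCN over all features was 0.46 log2 in run 3 and 0.02 in run 1. With all libraries in, that median was 0.23 for SD minus SCN, 0.15 for hybrids minus the midparent, 0.02 for hybrids minus SD, 0.29 for hybrids minus SCN and 0.05 for SDf x SCNm minus SCNf x SDm. Differences below are of mean log2(RPKM + 1) and read against these medians, where the midparent is the average of both parental means on that log2 scale. RPKM is the deposited unit, the number of reads scaled to contig length and library size.

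Nanos homolog 2 showed the widest range of the 4 contigs, 21.9-fold between its highest and lowest library. It stood at 70.4 and 83.8 RPKM in SDf x SCNm and at 49.2 and 61.1 RPKM in SCNf x SDm. In SD it stood at 80.3, 319 and 84.3 RPKM, against 15.02 and 14.59 RPKM in SCN. Every SD and every hybrid library was far above SCN, the hybrids overlapped SD, and SD replicate 2 stood alone at the top. The SD level was 8.25-fold that of SCN, a difference of 3.04 log2, and without SD replicate 2 the difference was 2.40. It was 2.34 within run 1 and 2.45 within run 3. The low SCN values rest on 35 reads in replicate 1 (95% exact Poisson interval 24.4 to 48.7) and 15 reads in replicate 2 (8.40 to 24.7), against 53 to 1108 reads in SD. These intervals cover counting error only.

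On the log2 scale, hybrid nanos homolog 2 levels lay above the midparent, and they reached into the SD range. The hybrids averaged 66.1 ± 14.6 RPKM (standard deviation, n = 4), against 161 ± 137 RPKM in SD (n = 3) and 14.8 ± 0.303 RPKM in SCN (n = 2). All 4 hybrid libraries were above the log2 midparent, which corresponds to 44.4 RPKM, by 0.14 to 0.90 log2. Their mean difference from it was 0.54, or 0.86 without SD replicate 2. Taken from the RPKM means instead, the parental average lies above all 4 hybrid libraries, so this direction depends on the scale. Hybrids minus SCN was 2.06, a 4.17-fold higher level in hybrids. Hybrids minus SD was -0.98, but -0.34 without SD replicate 2, so this size depends on 1 library. Both SDf x SCNm libraries were above both SCNf x SDm libraries, with a difference of 0.48 log2, and of 0.60 among the libraries of run 5.

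**Figure D1:**
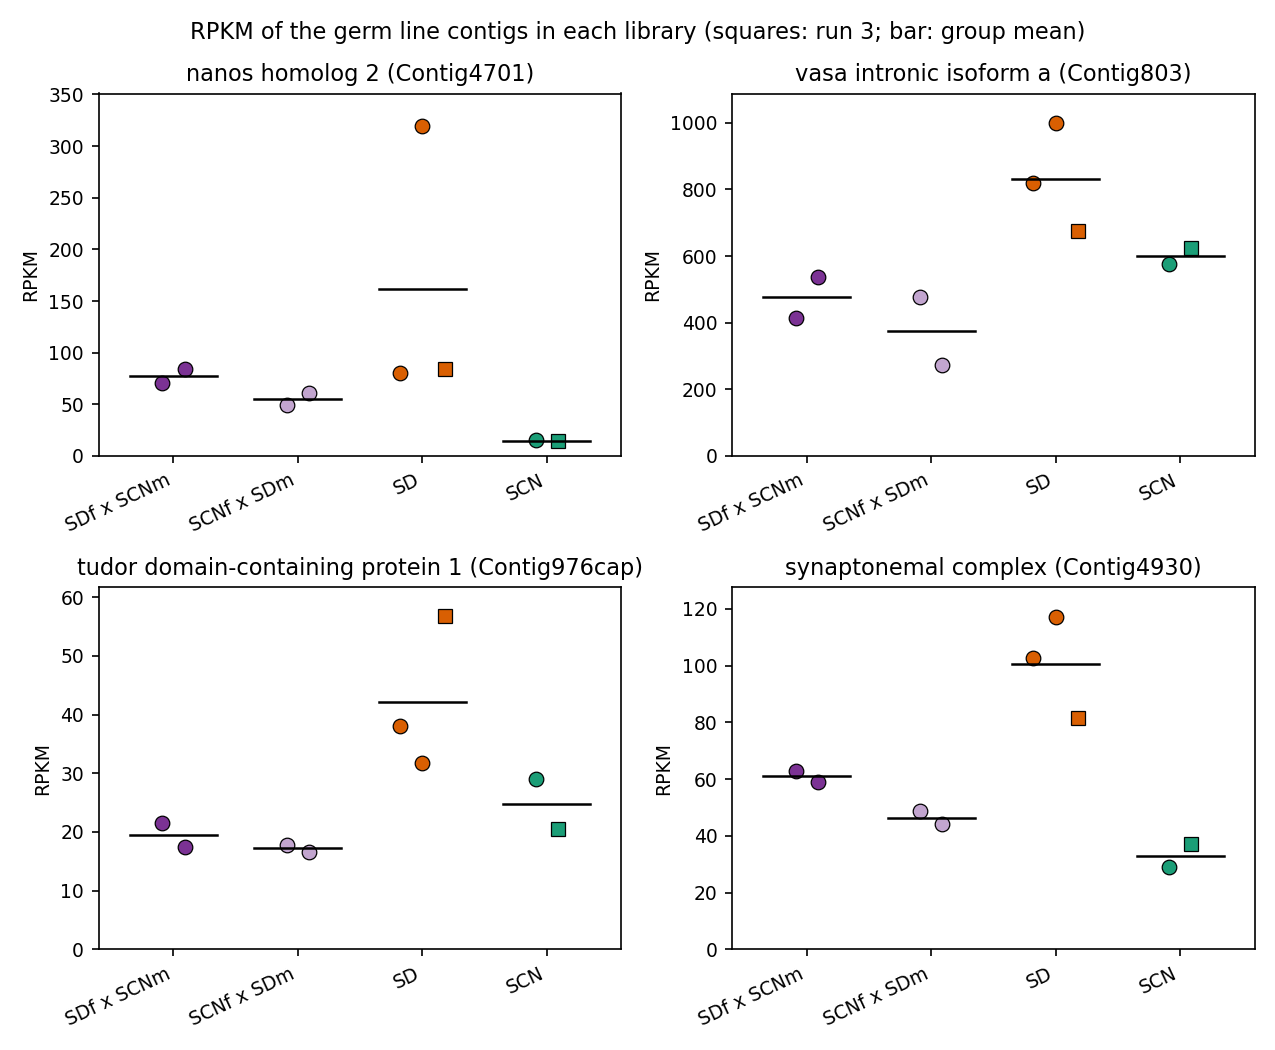
RPKM (vertical axes, from 0) of the 4 contigs in each library, with groups along the horizontal axes; bars are group means and squares mark the run 3 libraries. Nanos homolog 2 is low only in SCN at 15.02 and 14.59 RPKM, all hybrids lie under all parents for vasa intronic isoform a, and synaptonemal complex hybrids lie between the parents.

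The files hold 2 more contigs with nanos in the name. The nanos-like protein Contig1840cap was more abundant in every library. It had 579 and 515 RPKM in SDf x SCNm, 378 and 396 in SCNf x SDm, 758, 866 and 809 in SD, and 406 and 595 in SCN. Its SD and SCN libraries did not overlap, and its difference SD minus SCN was 0.72 log2. The nanos 2-like protein Contig3127 had 114 and 108 RPKM in SDf x SCNm, 67.9 and 66.9 in SCNf x SDm, 149.7, 269 and 78.7 in SD, and 53.5 and 68.0 in SCN. It too was highest in SD replicate 2, and its difference SD minus SCN was 1.27. Neither passed limma's test over all features in any comparison.

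The ratio of nanos homolog 2 to nanos-like protein within a library does not depend on the library's scaling. It was 0.122 and 0.163 in SDf x SCNm, 0.130 and 0.154 in SCNf x SDm, 0.106, 0.368 and 0.104 in SD, and 0.0369 and 0.0245 in SCN. SCN was lowest with no overlap, the crosses overlapped each other, and SD replicate 2 was again apart from the other SD libraries. Whether these contigs are separate genes, copies or pieces of a transcript is not stated in the files.

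Vasa intronic isoform a was the most abundant of the 40 contigs matched by germ line words, with a mean of 599.7 RPKM over all libraries, rank 314 of 13758. It matched through the word vasa, and pools of whole animals do not show whether it is expressed in the germ line. It measured 415 and 538 RPKM in SDf x SCNm, and 477 and 274 RPKM in SCNf x SDm. Parents were higher, at 819.6, 999.9 and 676 RPKM in SD and 575 and 624 RPKM in SCN. All 4 hybrid libraries were below all 5 parental ones, a pattern that 1.5% of all features shared. The hybrids averaged 426 ± 113 RPKM (standard deviation, n = 4), against 832 ± 162 in SD (n = 3) and 599 ± 34.3 in SCN (n = 2).

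Relative to the midparent, the hybrid level of vasa intronic isoform a was 1.70-fold lower, a difference of -0.76 log2. Single hybrid libraries were 0.38 to 1.36 log2 below the midparent, with SCNf x SDm replicate 2 lowest. Hybrids minus SD was -0.99 and hybrids minus SCN was -0.54, or -0.34 without SCNf x SDm replicate 2. SD libraries were above SCN libraries without overlap, yet by only 0.45 log2, and by 0.12 within run 3 against 0.51 within run 1. The crosses overlapped. Their difference of 0.39 log2 rested on SCNf x SDm replicate 2, since it was -0.01 without that library, 0.79 without SCNf x SDm replicate 1 and 0.20 without SDf x SCNm replicate 2.

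Vasa-like protein, the row that carries the helicase's name, gave 509 and 509 RPKM in SDf x SCNm and 373 and 397 RPKM in SCNf x SDm. It gave 616, 527 and 673 RPKM in SD, and 416 and 768 RPKM in SCN. Hybrids were below every SD library but overlapped SCN, whose libraries differed widely. The differences were -0.44 log2 for hybrids minus SD and 0.09 for SD minus SCN. Limma's adjusted p was 0.475 for the hybrids against SD and 0.923 for SD against SCN. Both SDf x SCNm libraries were above both SCNf x SDm libraries, with a difference of 0.40 log2 and an adjusted p of 1.00 by limma. The ratio of vasa intronic isoform a to vasa-like protein ran from 0.689 to 1.28 in hybrids, 1.00 to 1.90 in SD and 0.812 to 1.38 in SCN, and all groups overlapped.

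Tudor domain-containing protein 1, Contig976cap, was the least abundant of the 4 contigs at a mean of 27.7 RPKM, near the middle of all features. Its levels were 21.5 and 17.4 RPKM in SDf x SCNm, and 17.8 and 16.6 RPKM in SCNf x SDm. They were 38.0, 31.8 and 56.8 RPKM in SD, and 29.0 and 20.5 RPKM in SCN. Hybrids were below all SD libraries, overlapped SCN by 1 library, and varied little among themselves. Hybrids averaged 18.3 ± 2.15 RPKM (standard deviation, n = 4), against 42.2 ± 13.01 in SD (n = 3) and 24.7 ± 6.06 in SCN (n = 2).

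Hybrids minus SD was -1.12 log2 for Contig976cap, a 2.18-fold lower level in hybrids, and every hybrid library was 0.54 to 0.89 log2 below the midparent. Hybrids minus SCN was -0.40, but -0.16 without SCN replicate 1 and -0.64 without SCN replicate 2. The parental difference, SD minus SCN, was 0.73 log2, 1.43 within run 3 and 0.38 within run 1. It was 0.48 without SCN replicate 2 and 0.25 without both run 3 libraries, so most of its size came with these shallow libraries, where the contig had 149 reads in SD replicate 3 and 93 in SCN replicate 2. The crosses overlapped, with a difference of 0.16 log2 that was 0.02 without SDf x SCNm replicate 1 and 0.30 without SDf x SCNm replicate 2.

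The name tudor domain-containing protein 1 was also given to Contig4680 and Contig4818. Contig4680 was more abundant than Contig976cap in the hybrids, at 62.1 and 68.7 RPKM in SDf x SCNm and 57.5 and 48.6 RPKM in SCNf x SDm. Its parental levels were 67.6, 80.8 and 49.1 RPKM in SD, and 58.9 and 21.0 RPKM in SCN. Hybrids minus SD was -0.13 log2 for this contig, with overlap. Contig4818 had 19.6 and 15.8 RPKM in SDf x SCNm, 12.3 and 11.3 in SCNf x SDm, 22.5, 19.5 and 30.8 in SD, and 16.4 and 10.1 in SCN. Limma called neither contig in any of the 5 comparisons.

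The ratio of Contig976cap to Contig4818 was nearly constant within each group. It was 1.10 and 1.11 in SDf x SCNm, 1.44 and 1.47 in SCNf x SDm, 1.69, 1.63 and 1.84 in SD, and 1.77 and 2.03 in SCN. All hybrid ratios were below all parental ratios, and the crosses did not overlap. The ratio to Contig4680 was 0.254 to 0.346 in hybrids, 0.393 to 1.16 in SD and 0.492 and 0.975 in SCN, again with all hybrids below all parents. Contig976cap therefore did not keep a fixed proportion to either contig. Both ratios share Contig976cap, which was chosen with these values known, and no share over other pairs was computed. The ratio of Contig4680 to Contig4818, without it, overlapped among all groups. That ratio was 3.17 to 4.66 in hybrids, 1.6 to 4.15 in SD, and 2.08 and 3.59 in SCN. How the authors counted reads shared between the same-named contigs is not stated.

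**Figure D2:**
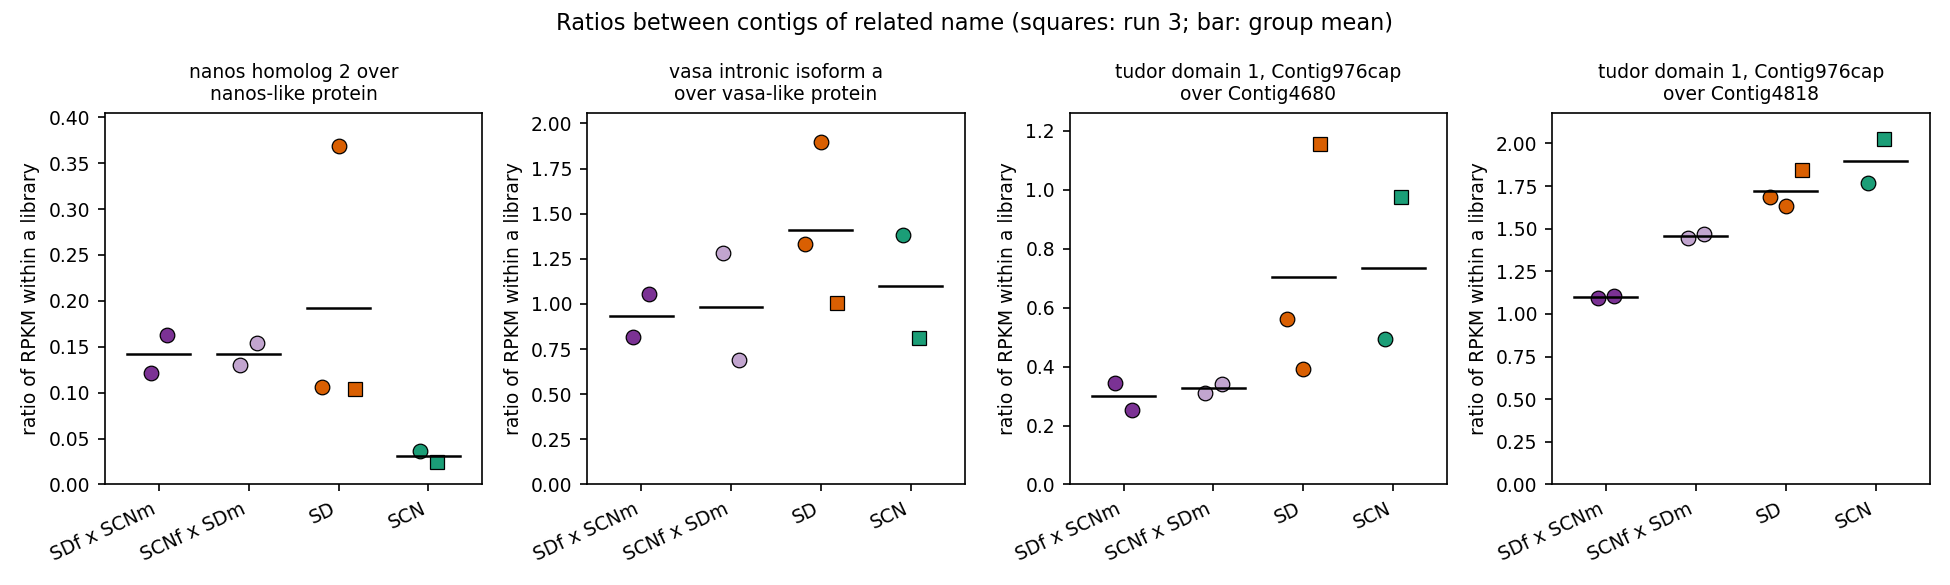
Ratio of RPKM (vertical axes, from 0) between contigs of related name within each library, by group; bars are group means and squares mark the run 3 libraries. SCN is lowest for nanos homolog 2 over nanos-like protein (0.0245 and 0.0369), and hybrids are below both parents for Contig976cap over each of the other contigs named tudor domain-containing protein 1.

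The synaptonemal complex contig, Contig4930, ordered the groups most cleanly. It had 62.9 and 59.2 RPKM in SDf x SCNm, and 48.6 and 44.1 RPKM in SCNf x SDm. It had 103, 117 and 81.6 RPKM in SD, and 28.9 and 37.1 RPKM in SCN. No group overlapped another: SD was highest, then SDf x SCNm, then SCNf x SDm, and SCN was lowest. Group means were 61.0 ± 2.63 RPKM in SDf x SCNm (standard deviation, n = 2), 46.4 ± 3.19 in SCNf x SDm (n = 2), 101 ± 17.9 in SD (n = 3) and 33.0 ± 5.73 in SCN (n = 2).

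SD minus SCN was 1.57 log2 for Contig4930, a 2.98-fold higher level in SD, with 1.79 within run 1 and 1.12 within run 3. Hybrids minus SD was -0.89 and hybrids minus SCN was 0.68. The hybrid mean was close to the midparent, at -0.10, and was -0.02 to -0.19 when 1 parental library was left out, at its extremes without SCN replicate 2 and SCN replicate 1. SDf x SCNm libraries were 0.05 and 0.13 above the midparent, less than the median of 0.15 for all features, and SCNf x SDm libraries 0.23 and 0.37 below it. Taken from the RPKM means instead, the parental average lies above every hybrid library. With median-of-ratios scaling both cross means were below the midparent, at -0.09 in SDf x SCNm and -0.45 in SCNf x SDm. The difference between the crosses was 0.39 log2, and 0.35 among the libraries of run 5. A second contig with the same name, Contig8264, had 15.6 and 22.2 RPKM in SDf x SCNm, 31.1 and 17.5 in SCNf x SDm, 33.7, 40.1 and 18.5 in SD, and 22.4 and 5.24 in SCN. It overlapped between all groups. Its value in SCN replicate 2 was the lowest, and limma called it in no comparison.

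Side by side, the 4 contigs shared a parental direction and parted in the hybrids. All 4 were higher in SD than in SCN with no overlap, as were 19.8% of all features, and this contrast had entered the choice. All 4 had a lower mean in hybrids than in SD, from -0.89 to -1.12 log2, where nanos homolog 2 was -0.34 without SD replicate 2. Hybrids were below SD without overlap for 3 of them, against 13.3% of all features. Against SCN, hybrids were higher without overlap for nanos homolog 2 and synaptonemal complex, against 18.4% of all features, and lower without overlap for vasa intronic isoform a, against 7.23%. These comparisons share the hybrid libraries. They also reuse the SD and SCN libraries whose difference entered the choice, so the shares of all features are background and no test. In the comparison of the crosses the SDf x SCNm mean was the higher for all 4, and nanos homolog 2 and synaptonemal complex did not overlap, against 16.3% of all features.

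Over the 9 libraries, Pearson's r of log2(RPKM + 1) was 0.89 between nanos homolog 2 and synaptonemal complex, 0.66 between vasa intronic isoform a and Contig976cap, and 0.26 to 0.58 for the other 4 pairs. These are descriptions over libraries that fall into 4 groups and share depth.

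Each contig was also set against the summed RPKM of the 36 other germ line contigs of the same library. Nanos homolog 2 amounted to 2.40 to 3.33% of that sum in hybrids, 2.46 to 9.46% in SD and 0.545 and 0.681% in SCN. Synaptonemal complex amounted to 2.30 to 2.52% in hybrids, 2.41 to 3.48% in SD and 1.31 and 1.38% in SCN. For both, SCN stayed apart from all other libraries on this scale, but the hybrids overlapped SD and the crosses overlapped each other. Synaptonemal complex was at 2.52 and 2.36% in SDf x SCNm, and at 2.37 and 2.30% in SCNf x SDm. Nanos homolog 2 was at 2.82 and 3.33% in SDf x SCNm, and at 2.40 and 3.18% in SCNf x SDm. Vasa intronic isoform a amounted to 14.2 to 23.2% in hybrids, 19.9 to 29.7% in SD and 23.3 and 26.1% in SCN, so that the hybrids overlapped SD and came just short of SCN. Contig976cap amounted to 0.694 to 0.868% in hybrids, 0.942 to 1.67% in SD and 0.764 and 1.32% in SCN.

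The other germ line contigs were taken from word lists of protein names, 24 for germ plasm and the piRNA pathway and 12 for meiosis. Limma called 0 of these 36 in SD against SCN at an adjusted p of 0.05, where it called 0.429% of all features. At an unadjusted p under 0.05 it found 10 of 36, 9 higher and 1 lower in SD, against 2411 of 13758 features. The voom fit on recovered reads also called 0. Their median difference SD minus SCN was 0.42 log2, against 0.23 for all features, with 26 of 36 above 0, against 8605 of 13758 features. Without the run 3 libraries it was 0.33, against -0.03 for all features, with 24 of 36 above 0, against 6703 of 13758 features.

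Meiotic recombination protein spo11, Contig430, which makes the DNA breaks that start recombination, came nearest the threshold in that comparison. It had 10.05 and 14.4 RPKM in SDf x SCNm, 8.86 and 9.10 in SCNf x SDm, 21.9, 18.8 and 23.3 in SD, and 7.11 and 3.37 in SCN. Like Contig4930, its hybrids lay between the parents without overlap. SD minus SCN was 1.90 log2 (standard error 0.386), with an adjusted p of 0.0688 by limma. In all, 13 of 36 were higher in SD without overlap, against 19.8% of all features, with argonaute 3, the piRNA pathway helicase spindle-e, gametocyte-specific factor 1 (Contig12532) and maternal protein pumilio, the partner of nanos, among them. Their differences SD minus SCN were 0.95, 0.60, 1.32 and 1.14 log2. The reverse order was seen in 3 of 36, against 9.17% of all features. A maelstrom homolog of the piRNA pathway, Contig5902, had 21.5 to 34.5 RPKM in SD against 54.3 and 37.4 RPKM in SCN. Meiosis-specific with ob domain-containing protein, Contig2221cap, which in the mouse works in meiotic recombination, had 3.62 to 5.60 RPKM in SD against 6.82 and 7.44 RPKM in SCN. Required for meiotic nuclear division protein 1, Contig2322, had 16.0 to 23.4 RPKM in SD against 28.6 and 122 RPKM in SCN. Its name matched the word meiotic, but the human protein of that name works in mitochondria. Meiotic recombination 11 repairs DNA in all cells, and the human proteins named c14orf21 and kiaa0020, matched through pumilio, take part in making ribosomes.

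Against SD, hybrids were lower for most of the other germ line contigs. The difference was below 0 for 30 of 36, against 6701 of 13758 features, and the median was -0.46 log2, against 0.02 for all features. Without the run 3 libraries these were 29 of 36, against 6650 of 13758 features, and -0.43. Hybrids lay below SD without overlap for 17 of 36 (47.2%), against 13.3% of all features. Limma called 0 of 36, with 1.6% of all features called, and 9 of 36 had an unadjusted p under 0.05, of which 8 were lower in hybrids, against 2628 of 13758 features, of which 976 were lower. Voom on recovered reads called 0.

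Gametocyte-specific factor 1, Contig12532, a zinc finger protein that in mouse and fly acts with Piwi proteins in silencing transposons, had the smallest adjusted p of the lower ones, 0.0761 by limma. It had 45.1 and 43.0 RPKM in SDf x SCNm, 33.8 and 38.7 in SCNf x SDm, 85.3, 96.2 and 108 in SD, and 25.4 and 56.6 in SCN. Hybrids minus SD was -1.25 log2 (standard error 0.317), and hybrids overlapped SCN. For the other contig named gametocyte-specific factor 1, Contig1833, hybrids minus SD was -0.29 log2, with overlap. Tudor domain-containing protein 7-like had a difference of -1.29, protein piwi-like -0.59, argonaute 3 -0.71 and tudor and kh domain-containing protein -0.61, each without overlap with SD.

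Against the midparent the median of the 36 was -0.23 log2, against 0.15 for all features, with 25 of 36 below 0, against 5212 of 13758 features. Limma called 0 of 36 and 0.8% of all features. Voom called 0, and 4 of 36 had an unadjusted p under 0.05, against 2268 of 13758 features. Besides vasa intronic isoform a, helicase mov10l1-like, which in the mouse binds piRNA precursors, was the only contig of the germ line word lists with all hybrids below all parents. It had 13.6 and 14.6 RPKM in SDf x SCNm, 12.5 and 11.7 in SCNf x SDm, 18.1 to 25.6 in SD, and 15.7 and 17.3 in SCN. As 1 of 36 (2.78%) it is near the share of all features with that pattern, 1.5%. Its adjusted p against the midparent was 0.329 by limma. The opposite pattern was found for meiosis arrest female protein 1-like, Contig2603cap, at 36.2 to 59.8 RPKM in hybrids, 7.71 to 22.6 RPKM in SD, and 30.1 and 8.93 RPKM in SCN. Its difference from the midparent was 1.44 log2 (standard error 0.425), with an adjusted p of 0.142 by limma. All hybrids above all parents was found for 5.86% of features. The related Contig4618, meiosis arrest female protein 1 homolog, went the other way, at -0.45 log2 from the midparent. Its hybrids, at 40.5 to 56.7 RPKM, lay below SD at 62.1 to 115 RPKM and overlapped SCN at 79.3 and 28.7 RPKM.

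Against SCN the 36 contigs were split, with 19 above 0 and 17 below, where 9339 of 13758 features were above 0. Their median was 0.06 log2, against 0.29 for all features. That sign turned to -0.04 without the run 3 libraries. Limma called 0 of 36 and 0.0145% of all features, voom called 0, and 3 of 36 had an unadjusted p under 0.05, against 2100 of 13758 features.

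**Figure D3:**
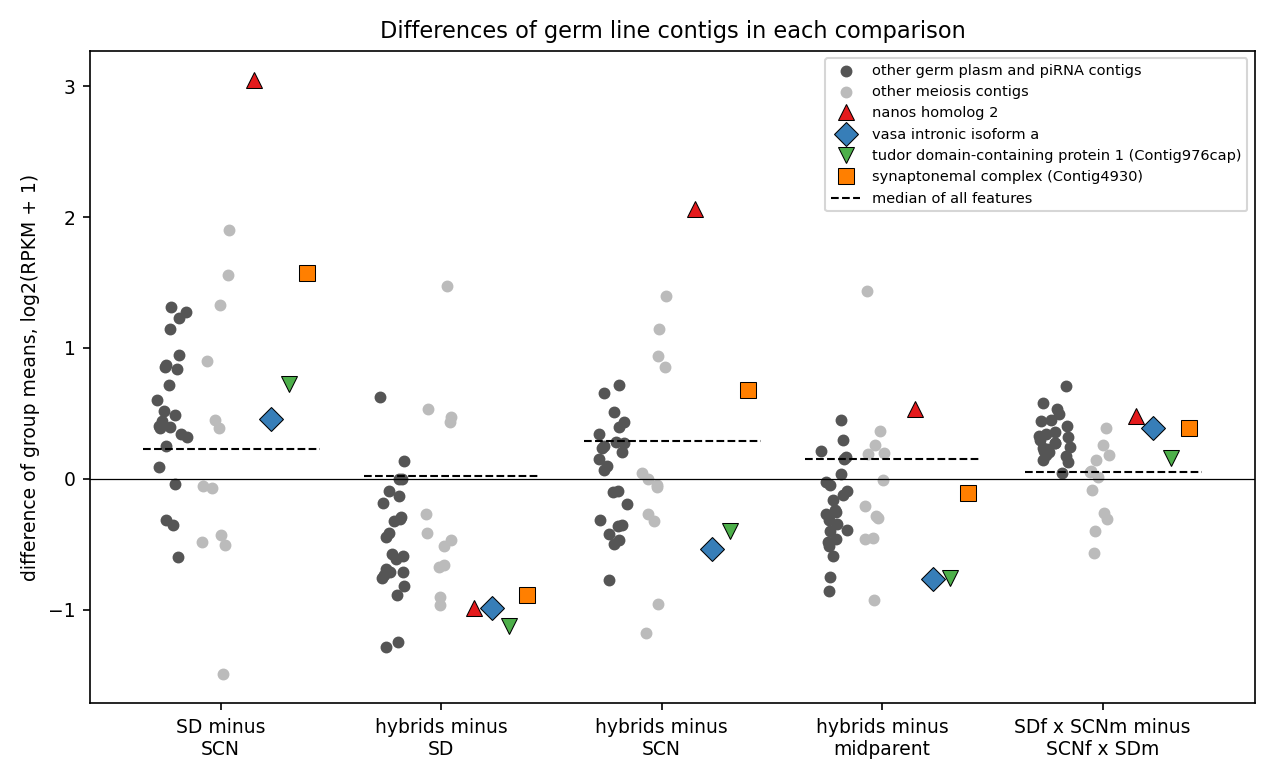
Difference of group means in log2(RPKM + 1) (vertical axis) for the 4 contigs (coloured symbols) and the 36 other germ line contigs (grey points, spread sideways for legibility) in each of the 5 comparisons; dashed lines are the medians of all 13758 features. Hybrids minus SD lies below 0 for 30 of the 36, against 6701 of 13758 features. SDf x SCNm minus SCNf x SDm lies above 0 for all 24 other germ plasm and piRNA contigs, against 7806 of 13758 features.

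Between the crosses, the other 24 germ plasm and piRNA contigs ran higher in SDf x SCNm, by small amounts. The difference was above 0 for 24 of 24, against 7806 of 13758 features, with a median of 0.29 log2 against 0.05 for all features. Of the 24, 19 (79.2%) did not overlap, against 16.3% of all features. Within run 5, SDf x SCNm replicate 2 was above both SCNf x SDm libraries for 21 of 24, against 32.0% of all features. The largest difference, 0.71 log2, was that of the nanos 2-like protein given above. Argonaute 3 had 79.4 and 67.3 RPKM in SDf x SCNm against 50.5 and 46.8 RPKM in SCNf x SDm. Of the 12 other meiosis contigs, 7 were above 0. Without overlap, 2 were higher and 2 were lower, against 16.3% and 12.5% of all features. Limma called 0 of 36 here and 0 of all 13758 features, of which 39 had an unadjusted p under 0.05 and none of those were among the 36. Voom called 0 of the 36 too.

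Of the lists for other cells, the dividing cell list had the same order of group means as the germ plasm list, and the other lists had other orders. Summed RPKM of 17 contigs for dividing cells, cyclin b and proliferating cell nuclear antigen among them, was 1160 to 1247 in SDf x SCNm, 871 to 1036 in SCNf x SDm, 1384 to 1664 in SD, and 959 and 1293 in SCN. The 24 germ plasm and piRNA contigs outside the 4 summed to 2223 to 2241 in SDf x SCNm and 1683 to 1738 in SCNf x SDm. Their parental sums were 2886 to 3050 in SD, and 1920 and 2357 in SCN. With 3 of the 4 contigs added, the 27 summed to 2747 to 2862 in SDf x SCNm and 2035 to 2282 in SCNf x SDm. That larger sum was 3824 to 4401 in SD, and 2539 and 3016 in SCN, and the added contigs were chosen with these values known. Of the dividing cell contigs, 10 of 17 were higher in SD than SCN without overlap, against 19.8% of all features. Without overlap, 8 of 17 were lower in hybrids than SD, against 13.3%, and 11 of 17 were higher in SDf x SCNm than SCNf x SDm, against 16.3%. In each comparison limma called 0 of the 17, with 6 at an unadjusted p under 0.05 in SD against SCN, against 2411 of 13758 features.

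The 25 testis and sperm contigs summed to 1200 and 1246 in SDf x SCNm, 1038 and 1138 in SCNf x SDm, 1178 to 1538 in SD, and 572 and 1086 in SCN. Of them 10 of 25 were higher in SD than SCN without overlap, against 19.8% of all features. In that comparison limma called 0 of 25, with 7 at an unadjusted p under 0.05, against 2411 of 13758 features. The 32 egg and yolk contigs, mostly carried by vitellogenins, differed as much within parental groups as between them, with 28067 to 41014 in hybrids, 13744 to 36526 in SD, and 5208 and 37779 in SCN. None passed with limma in a comparison, where at most 8 had an unadjusted p under 0.05, in hybrids against SD, against 2628 of 13758 features. Voom on recovered reads also called 0 of the dividing cell, testis and sperm, and egg and yolk contigs it could take.

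Of the lists for the body, the 58 muscle contigs summed to 19540 to 26199 in hybrids, 21477 to 27575 in SD, and 27128 and 42393 in SCN. Limma called 1 of the 58, higher in hybrids than in SD, near the 1.52% of all features called so. The 86 cuticle contigs summed to 29349 to 53004 in hybrids, 10816 to 26576 in SD, and 10876 and 22723 in SCN, with all hybrids above all parents. Limma called 16 of 86 higher in hybrids than in SD, against 1.52% of all features, and 9 of 86 higher than the midparent, against 0.792%. Voom on recovered reads called 21 of 86 higher than in SD, where it called 399 of 13722 features in either direction. Against the midparent voom called 13 of 86 higher, with 146 of 13722 features called. In each of these 2 comparisons voom called 1 of 56 muscle contigs, higher than SD and lower than the midparent. Cuticle sums were also the higher in SCNf x SDm, at 48167 and 53004, against 29349 and 39275 in SDf x SCNm, the order opposite to that of the germ plasm list. No list member was listed at 0 RPKM, because the deposited values carry an added constant. The part of cell makeup, stage or sex in the germ line differences was not tested.

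**Figure D4:**
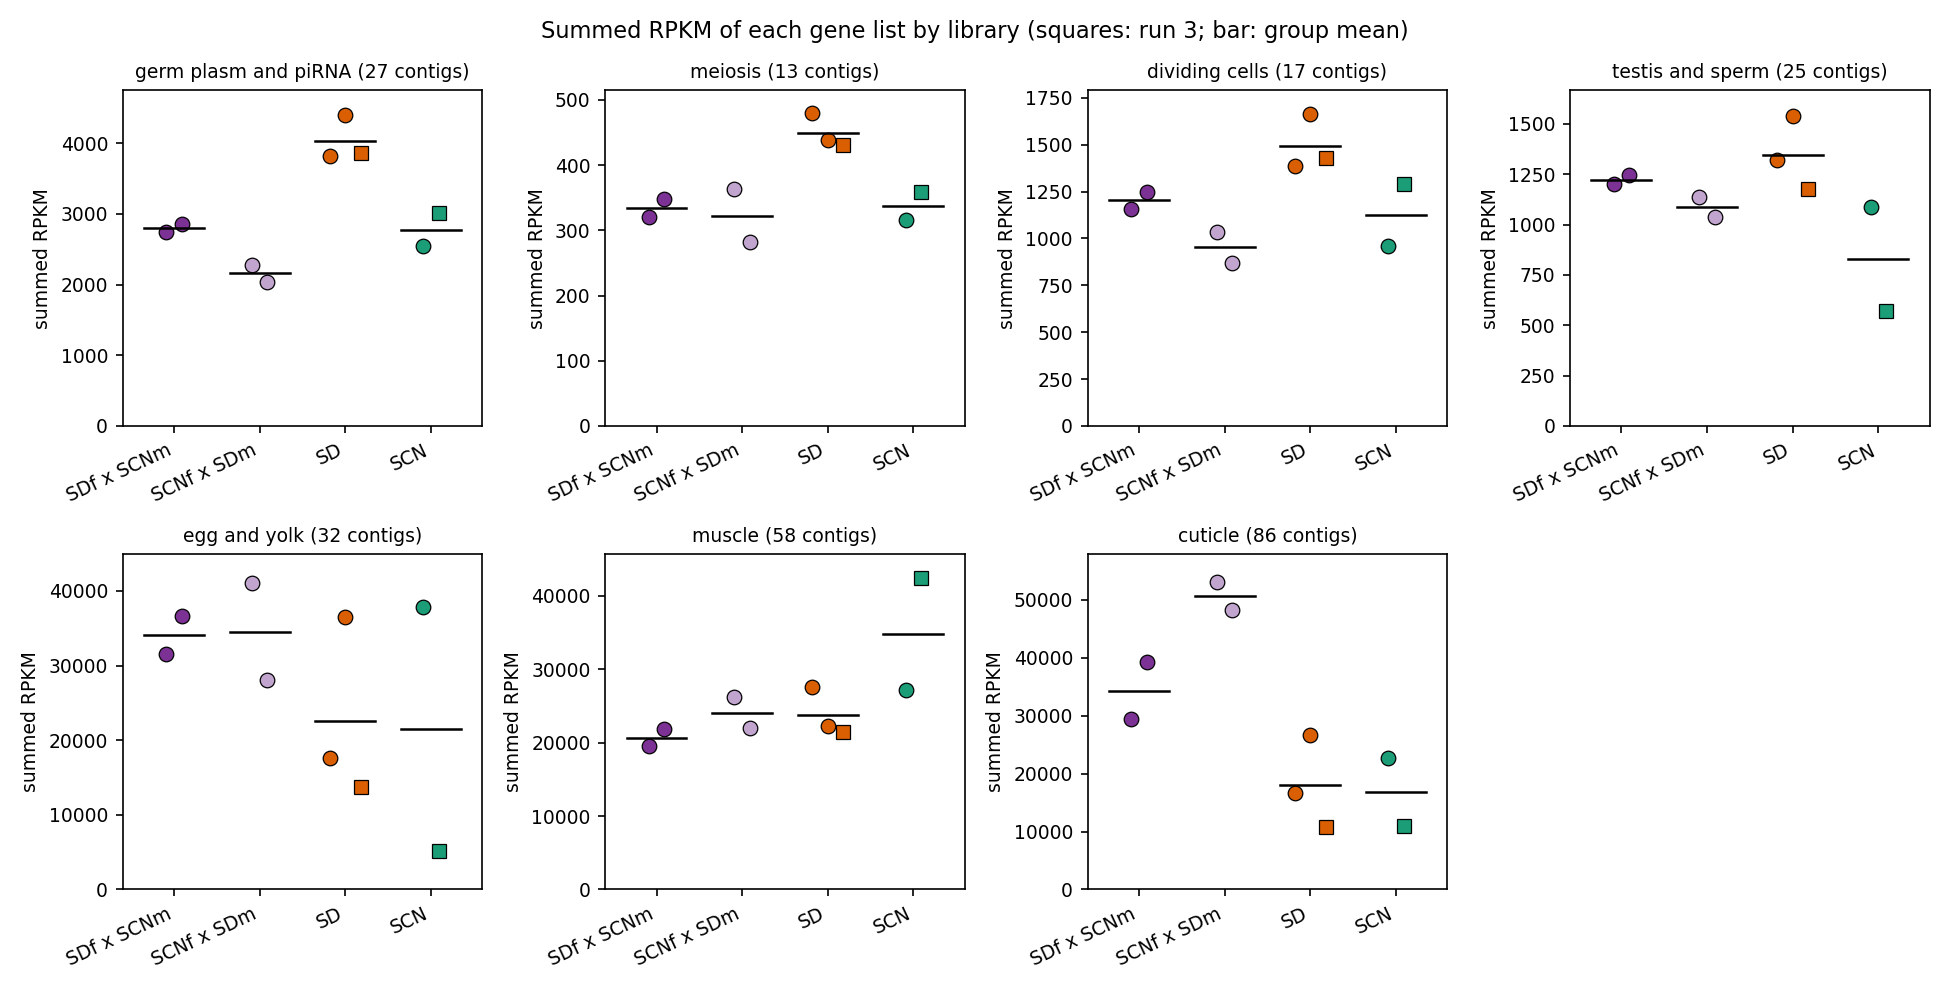
Summed RPKM (vertical axes, from 0) of each gene list by library and group; bars are group means, squares mark the run 3 libraries and lists are word matches in protein names. Germ plasm and dividing cell sums are highest in SD and lowest in SCNf x SDm on average, while cuticle sums are highest in SCNf x SDm. The germ plasm and meiosis sums include the chosen contigs.

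Features with the most similar pattern over the 9 libraries, among 7472 with an informative name and a mean of at least 10 RPKM, differed from contig to contig. For nanos homolog 2 they were thap domain-containing protein 2 (r = 0.980), perlucin 5 (0.980) and thap domain-containing protein 9 (0.979). For vasa intronic isoform a they were nuclear pore membrane glycoprotein Contig3015 (0.974), zinc finger fyve domain-containing protein 9 (0.970) and igf2 mRNA binding (0.964). For Contig976cap they were prp16-like splicing helicase (0.985), leucine-rich repeat-containing protein 20-like (0.972) and the serine proteinase stubble (0.964). For synaptonemal complex they were the mitotic spindle checkpoint protein mad1 (0.989), integrator complex subunit 4 (0.983) and lunapark-b-like (0.974). Each was picked as the closest of 7472 over 9 points, so such values describe these libraries only.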

How the data were processed

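The authors deposited RPKM per contig for each library, per the file headers. The sources used here do not give the aligner, the counting or any filter. Contigs carry protein names in the files. They matched 0 entries of the RefSeq gene table, so no coordinates or sequences are given. The 4 contigs, the gene lists and the comparisons were chosen with earlier results of these data known. Other genes were named because they belong to the germ line lists, or as the 3 most similar features. Some of these list members were picked after their values were seen.

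Limma 3.58.1 (R 4.3.3) with a mean-variance trend was fitted to log2(RPKM + 1) of all 9 libraries with 4 group means, which share 1 estimate of spread. P-values were adjusted by Benjamini-Hochberg over 13758 features. A filter at a mean RPKM of 1 removed 0 features. The log2(RPKM + 1) scale understates changes of low features. Nothing states that replicates were separate cultures, and the p-values then reflect spread among these libraries alone, which may be technical. With 2 or 3 libraries a group, only large changes can pass.

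Deposited RPKM values fell on steps of whole reads plus a constant of 1.12 to 18.4 reads per library. Reads were recovered for 13722 features (99.7%), with 99.9% of values within 0.05 read of a whole number. They gave depth, counting intervals and 2 alternatives. Both procedures were tested on simulated data. Deviations from the group mean correlated at -0.55 to 0.36 between libraries with the same replicate number. In a group of 2 these deviations mirror each other, so the correlations cannot show whether numbers mark pairs. Numbers were not used as pairs in the main fit. Replicates differed by more than counting noise in each group, with a chi-square per feature of 14.9 or more.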

Additional observations from a re-analysis of the deposited data

Results flagged for a closer look

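On the log2(RPKM + 1) scale, the SDf x SCNm libraries had more RNA of the synaptonemal complex contig, Contig4930, than the midparent and the SCNf x SDm libraries less. This midparent corresponds to 57.2 RPKM. Taken from the parental RPKM means instead, the average lies above every library of both crosses, so the opposite directions depend on the scale. The mean difference from the midparent was 0.091 log2 in SDf x SCNm and -0.30 log2 in SCNf x SDm, and each library went the way of its own cross (2 of 2 in each). The SDf x SCNm value is smaller than the median of all features for hybrids minus the midparent, 0.15 log2, so relative to that median both crosses were lower. With median-of-ratios scaling the means were -0.089 log2 in SDf x SCNm and -0.445 log2 in SCNf x SDm, both below the midparent. This difference between the crosses was not tested.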

How the results depend on the processing

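Each value of the 4 contigs was recomputed under another pseudocount (0.5 or 5), a filter at a mean of 10 RPKM, other scalings, a replicate block, without each library in turn, and without both run 3 libraries, and, chosen after seeing the data, with the added constant taken off or by voom on recovered reads. Of 404 such values, 128 could not change with the setting or did not, and of the 276 that did, 269 moved by less than the replicate spread. That spread is the pooled standard deviation of single libraries, a wide margin for group means, so this count says little about stability. Within it, nanos homolog 2 in hybrids minus SD went from -0.98 to -0.34 without SD replicate 2. Vasa intronic isoform a in SD minus SCN went from 0.45 to 0.17 with median-of-ratios scaling. Without both run 3 libraries, SD minus SCN was 0.25 for tudor domain-containing protein 1 and 1.89 for synaptonemal complex. Median-of-ratios scaling gave 1.29 for synaptonemal complex in SD minus SCN and 0.38 in hybrids minus SCN, and quantile normalization gave -0.79 for tudor domain-containing protein 1 in hybrids minus SCN. Leaving out 1 library moved vasa intronic isoform a between the crosses from -0.015 to 0.79. Counts of called features, which set the background here, were less stable. SD against SCN had 59, with 95 under quantile normalization, 10 with a replicate block, 161 with run as a block and 34 by voom, and 11 to 3085 without 1 library. Hybrids against the midparent had 110, with 193 at pseudocount 5, 170 under quantile normalization, 55 with a replicate block and 27 with the constant off, and 0 to 2985 without 1 library. Hybrids against SD had 220, with 538 under quantile normalization, 338 under median-of-ratios scaling, 31 with a replicate block, 724 without run 3, 133 with the constant off and 399 by voom, and 15 to 1322 without 1 library. Hybrids against SCN had 2, with 0 without run 3, 8 with the constant off and 0 by voom, and 0 to 3959 without 1 library. The highest counts came without SCN replicate 1 (3085, 2985 and 3959) and, for SD, without SCN replicate 2 (1322). A lone library left in a group is assumed to vary like the others. For the other 36 germ line contigs the count called was 0, and 11, 5, 4 and 10 without SCN replicate 1 in those 4 comparisons, 1 in SD against SCN and 4 in hybrids against SD without SCN replicate 2, 1 in each of these under quantile normalization, and 1 in hybrids against SD without run 3. Depth limits nanos homolog 2 in SCN and all values of the run 3 libraries, SD replicate 3 and SCN replicate 2.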
